A study of Gallus gallus with 20 samples.

Results

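The comparison set the mesenchyme of feather-forming skin from chicken embryos at embryonic day 7 (E7fm) against the epithelium of the same skin (E7fe). Its members are the 2 arrays titled as mesenchyme and the 2 titled as epithelium, 4 of the 20 arrays of the series, and the 13009 genes with a symbol on the array. The embryos were white leghorn, the skin was dorsal and is described as undifferentiated, and the sources call each sample pooled without giving the number of embryos. The 2 sheets were parted in cold calcium-free and magnesium-free saline with EDTA, so neither group was sorted for a cell type. The remaining arrays hold dorsal feather skin at day 9 (E9fm and E9fe, 3 arrays each) and metatarsal scale skin at day 9 (E9sm and E9se, 2 each) and day 11 (E11sm and E11se, 3 each), all from the same breed and without any genetic or drug treatment. The Methods count 3 mesenchymal and 2 epithelial arrays for each of these skins. At day 7 the labels give 2 and 2, and they differ from the Methods for E9fe, E9sm and E11se as well. The labels were followed throughout.

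Skin appendages form through signals between an epithelial sheet and the mesenchyme beneath it. In the bird, the dense dermis instructs the epithelium to form placodes, thickened discs that mark each feather site, and the placodes in turn gather dermal cells into condensations. WNT, FGF and EDA signals are known to promote placodes and BMP signals to space them. A ligand made in one sheet often has its receptor in the other, which is why the level of each member in each sheet is of interest.

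Levels are the authors' RMA values on the log2 scale, so a difference of 1 is a 2-fold difference in signal. Differences are E7fm minus E7fe, given with the SE and the adjusted p of limma (1 mean per group over all 20 arrays, Benjamini-Hochberg over 38382 probe sets). A gene passes when the adjusted p is below 0.05, and each gene stands for its probe set of highest mean level. Replicates correlated at r = 0.9919 in E7fm and 0.9855 in E7fe, and arrays of different compartments at 0.918 to 0.9237. The lowest level on these arrays was 2.40 to 2.47 and the files used here give no detection call, so a level of 3 to 4 may hold little or no transcript and the fold of such a gene has no firm upper bound. The fit pools the spread within all 8 groups, so a p-value at E7 also reflects the spread in the other skins, and it covers only the spread between these arrays. A lower level in a compartment can mean fewer cells of a type or less RNA per cell, and the 2 cannot be told apart here. Arrays labelled E9fe replicate 1 and E9fm replicate 1 stand apart from their groups and widen the spread that the fit pools, so counts are also given without them. They also move the means of E9 feather skin, whose differences are given here with them included. For WNT11 that difference was 1.68 with them and 1.23 without. Other genes moved more, such as ADAMTS17 (-1.21 with them and -0.26 without) and LMX1B (-2.53 and -4.16), or less, such as POSTN (1.30 and 1.44).

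Mesenchyme and epithelium differed in many genes, in near equal numbers each way. In mesenchyme 1182 genes were higher (9.09% of the 13009) and 1142 lower (8.78%). Over all probe sets 2414 were higher (6.29%) and 2336 lower (6.09%). Without the 2 doubted arrays 1381 genes were higher and 1318 lower. A difference of more than 3 log2 units (8-fold) was found for 270 of the higher and 207 of the lower genes, and of more than 6 units (64-fold) for 26 and 18. Of the 1347 passing genes with several probe sets, 827 had at least 2 that passed in the same direction and 2 genes had probe sets passing in both. How many probe sets of a gene passed is stated below for some genes only.

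The labelled compartments matched their markers. All 12 mesenchymal markers were on the array, and their mean level was 12.41 and 12.49 on the E7fm arrays, against 8.77 and 8.82 on the E7fe arrays. Of these 10 were higher in mesenchyme, while COL1A2 (0.45, SE 0.35, adjusted p = 0.636) and DCN (-0.19, SE 0.17, adjusted p = 0.73), a collagen chain and a small proteoglycan of the dermis, did not pass. Of the 12 epithelial markers 8 were matched, with a mean level of 5.65 and 5.76 on the E7fm arrays and 10.64 and 10.80 on the E7fe arrays, and 7 of the 8 were lower in mesenchyme.

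The genes with the largest differences included transcription factors and matrix genes on the mesenchymal side and junction genes on the epithelial side. TWIST2, a helix-loop-helix factor of dermal fibroblasts, had levels of 12.74 and 12.73 in E7fm and of 3.51 and 3.57 in E7fe (9.19, SE 1.25, adjusted p = 6.31e-05). ZIC1, a zinc-finger factor of the dorsal somite and its derivatives, had 11.78 and 12.04 in E7fm and 3.14 and 3.28 in E7fe (8.70, SE 1.78, adjusted p = 0.00281). The related TWIST1 had 11.80 and 11.38 against 3.54 and 3.99 (7.82, SE 1.22, adjusted p = 0.000251). For these 3 factors the mesenchymal arrays lay near the top of the array's range and the epithelial arrays near its floor. ESRP2, which directs the epithelial pattern of RNA splicing, ran the other way, at 3.21 and 3.80 in E7fm and 11.56 and 11.81 in E7fe (-8.18, SE 0.84, adjusted p = 3.57e-06). EPCAM, an adhesion molecule of epithelia, had 5.41 and 5.83 in E7fm and 13.16 and 13.03 in E7fe (-7.48, SE 0.89, adjusted p = 1.66e-05).

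Among the 15 genes with the largest positive differences were OGN (7.84) and BGN (6.70), small leucine-rich proteoglycans, and POSTN (6.77), the matrix protein periostin. COL6A1 (7.43) and COL6A2 (6.85, 1 of its 2 probe sets passing), chains of collagen VI, were there too. TNMD (7.35), tenomodulin, and CLEC3B (6.71), tetranectin, are secreted or cell-surface proteins of connective tissue. PRRX2 (6.84) and TBX15 (6.70), a homeobox and a T-box factor of the dermis, CDH5 (7.46), the cadherin of endothelium, ALDH1A3 (6.96), which makes retinoic acid, and HHIP (6.45), which binds hedgehog ligands, complete the 15. The 15 most negative held DSP (-7.21), CDH1 (-6.95), CLDN1 (-6.87), GJB6 (-7.10) and PERPA (-6.63), all of cell junctions, and the keratin KRT7 (-7.17). ESRP2 and EPCAM, given above, were also among them. So were AP1S3 (-7.06), of the clathrin adaptor AP-1, and CALML3 (-6.81, 1 of its 2 probe sets passing), a calmodulin-like protein. CFI (-6.57, 1 of its 4 probe sets passing), complement factor I, and RIPK4 (-6.48), a kinase needed for epidermal differentiation in the mouse, followed. AGR2 (-6.32), an isomerase of the secretory pathway, WNT3A (-6.31), a canonical WNT ligand, and GATD3AL2 (-6.39) were the rest. Adjusted p ranged from 3.96e-10 for POSTN to 0.00281 for ZIC1, and 8 of the 30 were measured by probe sets that can read several transcripts of a family (IDs ending in _s_at).

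**Figure D1:**
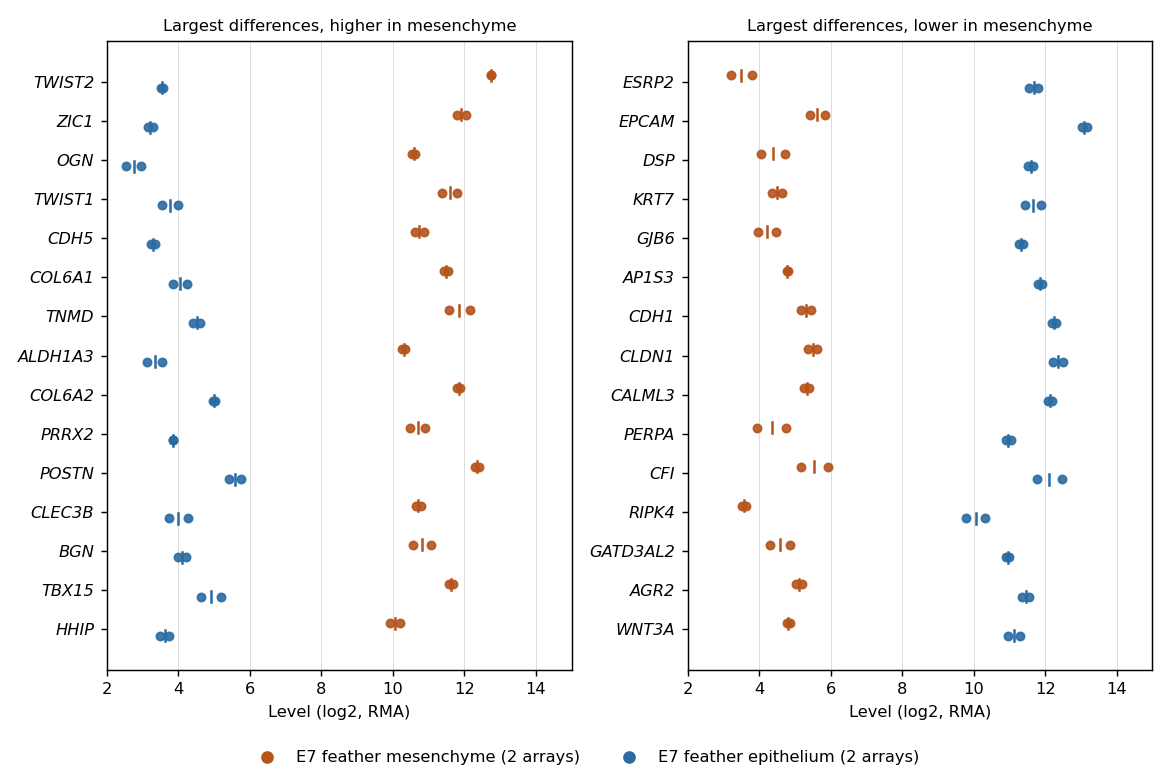
Level (log2, RMA) on each of the 2 E7 feather mesenchyme arrays and the 2 E7 feather epithelium arrays for the 15 genes with the largest difference in each direction, with the mean of each group as a short line. The group means lie 6.31 log2 units or more apart for each gene, and the groups overlap for none of the 30. Both follow from the choice of genes by size among passing genes without overlap. Of all 13009 genes, 7319 had groups that did not overlap.

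Gene lists were read by how many of their members on the array passed. Against 9.09% higher and 8.78% lower over all genes, with a median difference of -0.02, lists of epithelial structure leaned to epithelium and lists of dermis, vessels and blood to mesenchyme. Cell cycle genes (2 higher and 2 lower of 36) and ribosomal protein genes (0 and 1 of 52) had smaller shares than all genes. Most signalling lists had members on both sides. The EDA and Notch lists had 0 higher in this fit, though without the 2 doubted arrays 2 Notch genes were higher.

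**Figure D2:**
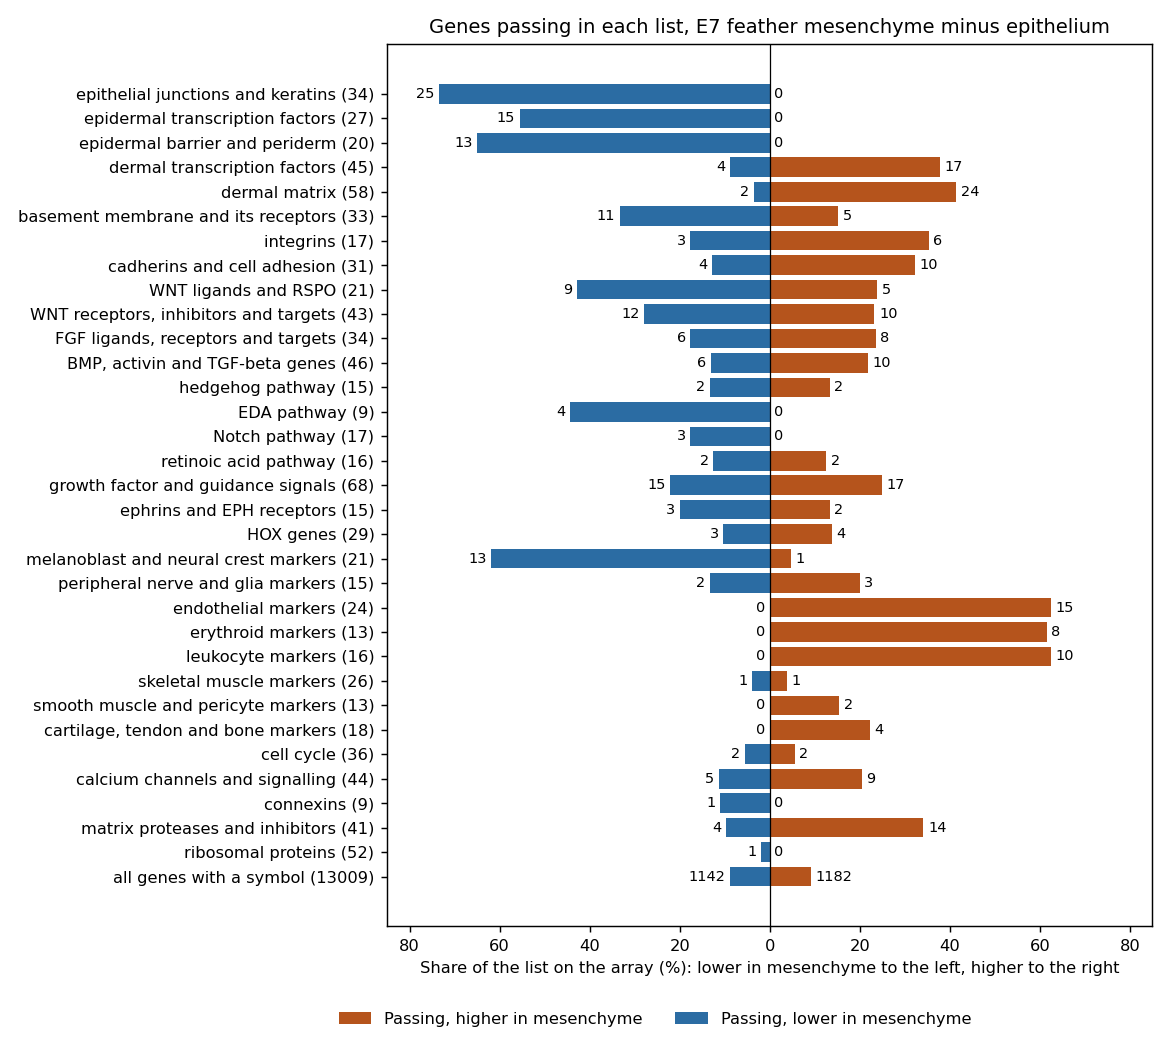
Share of each gene list on the array (%, number on the array in parentheses) that passed as higher in mesenchyme (right of 0) and as lower in mesenchyme (left of 0), with the counts at the bar ends. Epithelial lists extend to the left, endothelial, erythroid and leukocyte lists to the right, and all 13009 genes reach 1182 and 1142.

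Genes that hold epithelial cells together were lower in mesenchyme as a group. Of 34 genes of junctions and keratins 25 were lower and 0 higher, with a median of -2.45. CDH1, the cadherin of adherens junctions, had 5.17 and 5.44 in E7fm and 12.31 and 12.19 in E7fe (SE 0.95, adjusted p = 6.93e-05). The keratins of basal epidermis, KRT5 (-5.63, SE 0.95, adjusted p = 0.000515) and KRT14 (-5.09, SE 0.54, adjusted p = 5.34e-06), were lower too, though KRT14 still read 7.44 and 7.21 in E7fm, against 12.11 and 12.72 in E7fe. Claudins of tight junctions (CLDN1, CLDN3, CLDN10), occludin (OCLN, -3.10) and desmosomal DSC1 (-4.61), DSG2 (-3.07) and PKP2 (-5.00) followed. The claudin CLDN4 passed with a small difference (-0.83, SE 0.25, adjusted p = 0.0409, 1 of its 2 probe sets passing). JUP, plakoglobin, which also serves cadherins outside epithelia, had 10.37 and 10.57 in E7fm and 10.81 and 11.01 in E7fe and did not pass (-0.44, SE 0.31, adjusted p = 0.562). KRT75, a keratin of the feather in later stages, read 4.85 and 4.49 in E7fm and 4.35 and 4.81 in E7fe, where the groups overlapped (0.08, SE 0.27, adjusted p = 0.971).

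Epidermal transcription factors repeated this, with 15 of 27 lower and 0 higher (median -1.94). TP63, the factor of stratified epithelia, had 7.02 and 7.05 in E7fm and 11.07 and 10.95 in E7fe (-3.98, SE 0.32, adjusted p = 3.25e-07). TFAP2A (-4.82), TFAP2B (-5.55) and TFAP2C (-3.62), the AP-2 factors of surface ectoderm, GATA3 (-5.04), BARX2 (-4.90) and IRX4 (-4.37) were lower, as were GRHL1 (-3.88) and GRHL3 (-3.16), the grainyhead factors of the barrier. IRX1, of the same family as IRX4, had 9.88 and 9.99 in E7fm and 9.02 and 9.08 in E7fe and did not pass (0.89, SE 0.31, adjusted p = 0.0867). ESRP1, which shares its function with ESRP2, did not pass either (-0.67, SE 0.28, adjusted p = 0.172), with 5.74 and 5.57 in E7fm and 6.04 and 6.62 in E7fe. DLX5 (0.07, SE 0.51, adjusted p = 0.991) had overlapping groups at 9.40 and 8.62 in E7fm and 9.19 and 8.69 in E7fe.

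Barrier and periderm genes were already uneven at day 7, long before the skin cornifies. Of 20 on the array 13 were lower in mesenchyme and 0 higher (median -2.30). EVPL, envoplakin of the cornified envelope, had 3.81 and 4.03 in E7fm and 8.96 and 9.65 in E7fe (-5.38, SE 0.43, adjusted p = 2.9e-07). The lipid barrier genes CERS3 (-3.70), ABCA12 (-3.51) and ELOVL7 (-3.29), a ceramide synthase, a lipid transporter and a fatty acid elongase, passed. The protease inhibitor SPINK5 (-4.61) and SERPINB5 (-4.35), of the serpin family, passed too. ANXA1, annexin A1, lay at 7.43 and 6.87 in E7fm and 5.71 and 5.27 in E7fe without passing (1.66, SE 0.72, adjusted p = 0.193), though it passed without the 2 doubted arrays (adjusted p = 0.0278).

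Dermal transcription factors were split. Of 45 on the array 17 were higher and 4 lower in mesenchyme, with a median of 0.72. Beside TWIST1, TWIST2, ZIC1, TBX15 and PRRX2 the higher ones included SNAI1 (5.92), ZEB1 (4.80) and ZEB2 (3.77), repressors of epithelial genes, PRRX1 (4.55), MEOX2 (5.01), of the somite, and EBF3 (3.56) and EBF1 (3.17), helix-loop-helix factors. SNAI1 had 10.90 and 10.55 in E7fm and 4.58 and 5.02 in E7fe (SE 0.46, adjusted p = 2.08e-07). Its relative SNAI2, known in neural crest as well as mesenchyme, read 9.66 and 9.82 in E7fm and 9.50 and 9.48 in E7fe and did not pass (0.25, SE 0.25, adjusted p = 0.773). EN1, a homeobox factor known from ventral ectoderm and dorsal dermis, was higher in mesenchyme at 8.93 and 8.52, against 5.20 and 5.87 in E7fe (3.19, SE 0.62, adjusted p = 0.00173).

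Some factors of the dermal list were lower in mesenchyme. LMX1B, a LIM-homeobox factor of dorsal limb mesenchyme, had 4.40 and 4.28 in E7fm and 8.48 and 8.59 in E7fe (-4.20, SE 0.76, adjusted p = 0.00104). MSX2, a homeobox target of BMP signals, had 4.94 and 4.55 in E7fm and 8.23 and 8.44 in E7fe (-3.59, SE 0.62, adjusted p = 0.000608). SOX9 (-2.41, SE 0.46, adjusted p = 0.00143), a factor of cartilage and of hair follicle stem cells in the mouse, and FOXC1 (-1.32, SE 0.34, adjusted p = 0.0143), a forkhead factor, were the other lower members. TBX5, TBX2, TBX3, FOXF1 and TCF21 read between 3.78 and 5.58 on all 4 arrays and did not pass. FOXD1, of which one E7fm array read 7.20 and the other 5.36, against 4.54 and 5.07 in E7fe, did not pass (1.48, SE 1.51, adjusted p = 0.781). That SE pools the spread of all 8 groups.

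Matrix genes leaned to mesenchyme, with exceptions among abundant ones. Of 58 dermal matrix genes 24 were higher and 2 lower in mesenchyme (median 0.61). POSTN had 12.42 and 12.30 in E7fm and 5.76 and 5.42 in E7fe (SE 0.25). COL1A1, a chain of collagen I, had 13.64 and 13.94 in E7fm and 11.56 and 12.09 in E7fe (1.97, SE 0.49, adjusted p = 0.0111). This was a smaller difference than those of the collagen genes COL6A1 to COL6A3 (3.80 to 7.43), COL12A1 (3.33) or COL5A1 (2.66). LOX (3.94, SE 0.23, adjusted p = 1.55e-08), which crosslinks collagen, the fibrillins FBN1 (3.10) and FBN2 (3.39), and LUM (2.95), lumican, were higher. Fibronectin (FN1), with 13.04 and 13.46 in E7fm and 13.57 and 12.96 in E7fe, had overlapping groups (-0.01, SE 0.43, adjusted p = 0.998). The highest level on these 4 arrays was 14.35 to 14.41, not far above COL1A1 and FN1. Its bearing on their differences was not tested. COL14A1, a fibril-associated collagen, was lower in mesenchyme at 9.87 and 9.59, against 12.98 and 12.89 in E7fe (-3.20, SE 0.26, adjusted p = 2.86e-07).

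Basement membrane genes divided between the 2 sheets by subunit. Of 33 on the array 11 were lower and 5 higher in mesenchyme. LAMA3 (-5.67, SE 0.74, adjusted p = 4.13e-05) and LAMA5 (-3.66, SE 0.39, adjusted p = 5.12e-06), laminin chains of epithelial basement membrane, were lower, as were COL17A1 (-5.36) and DST (-4.01, 1 of its 3 probe sets passing), parts of the hemidesmosome. Collagen IV chains differed among themselves. COL4A5 had 6.07 and 6.16 in E7fm and 9.33 and 9.44 in E7fe (-3.27, SE 0.35, adjusted p = 5.24e-06), and COL4A6 5.51 and 5.54 against 8.36 and 8.41 (-2.86, SE 0.17, adjusted p = 2.05e-08). COL4A1 had 7.77 and 7.90 in E7fm and 4.0 and 3.95 in E7fe (3.86, SE 0.89, adjusted p = 0.0069, 1 of its 3 probe sets passing), and COL4A2 9.85 and 9.81 against 5.64 and 4.37 (4.83, SE 1.02, adjusted p = 0.00343). COL4A3 (0.02, SE 0.29, adjusted p = 0.995) and COL4A4 (-0.45, SE 0.60, adjusted p = 0.871) did not pass. The chains COL4A1 and COL4A2 are those of vessels and most tissues. Endothelial markers were higher in the same arrays, and the part of vessels in the difference of these chains was not tested. Nidogens differed in direction, NID1 being lower (-1.74, SE 0.50, adjusted p = 0.0277) and NID2 higher (2.48, SE 0.42, adjusted p = 0.000539) in mesenchyme.

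Integrins and cadherins showed the same division. Epithelial integrin chains ITGA6 (-3.18), ITGB4 (-2.22) and ITGA2 (-4.21) were lower in mesenchyme, while ITGA8 (4.84), whose ligand nephronectin NPNT was also higher (1.59), ITGA4 (2.58), ITGBL1 (2.60), ITGA11 (1.63), ITGB2 (1.37) and ITGB1 (0.81) were higher. In all 6 of the 17 genes of the integrin list, which includes the integrin-like ITGBL1, were higher and 3 lower. Of 31 cadherins and adhesion molecules 10 were higher and 4 lower. CDH11, the cadherin of mesenchyme, had 12.90 and 12.92 in E7fm and 7.76 and 7.39 in E7fe (5.33, SE 0.68, adjusted p = 3.29e-05). CDH2, N-cadherin, differed less, with 10.46 and 10.64 in E7fm and 9.03 and 8.82 in E7fe (1.62, SE 0.24, adjusted p = 0.000145, 1 of its 2 probe sets passing). CDH4, R-cadherin, was lower in mesenchyme (-1.94, SE 0.32, adjusted p = 0.000469, 1 of its 2 probe sets passing).

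Of 41 enzymes that cut the matrix and their inhibitors 14 were higher and 4 lower in mesenchyme, and 23 did not pass (median 0.33). MMP2, a gelatinase, had 12.61 and 12.57 in E7fm and 7.54 and 7.38 in E7fe (5.13, SE 0.80, adjusted p = 0.000241), and MMP27, another metalloproteinase, had 10.47 and 10.11 against 4.40 and 4.53 (5.82, SE 0.44, adjusted p = 1.89e-07). Inhibitors of these enzymes, TIMP3 (4.01), TIMP2 (1.12) and RECK (2.99), were higher in the same sheet. ADAMTS17, a secreted metalloprotease, was the widest exception, at 6.46 and 5.84 in E7fm and 11.98 and 11.75 in E7fe (-5.71, SE 0.59, adjusted p = 3.83e-06), and PLAU, the urokinase, was lower too (-2.83, SE 0.38, adjusted p = 5.52e-05).

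WNT ligands fell into an epithelial and a mesenchymal set. Of 21 ligand and R-spondin genes 9 were lower and 5 higher in mesenchyme. WNT3A had 4.85 and 4.78 in E7fm and 10.96 and 11.29 in E7fe (SE 0.65, adjusted p = 3.86e-06), and WNT6 5.81 and 6.18 against 10.79 and 11.33 (-5.06, SE 0.64, adjusted p = 3.18e-05). WNT7A (-4.47), WNT7B (-4.13), WNT3 (-4.02), WNT4 (-3.69), WNT2 (-2.96) and WNT10A (-1.73) were also lower. WNT11, which acts mainly outside the canonical pathway, had 11.39 and 11.25 in E7fm and 6.18 and 6.11 in E7fe (5.18, SE 0.54, adjusted p = 4.07e-06). RSPO1, an R-spondin that strengthens WNT signals, had 8.99 and 9.22 in E7fm and 4.14 and 4.06 in E7fe (5.01, SE 0.43, adjusted p = 6.33e-07), and WNT9A (2.57), WNT2B (1.90) and WNT5B (1.66) were higher. WNT5A read 11.02 and 10.78 in E7fm and 10.53 and 10.71 in E7fe and did not pass (0.28, SE 0.30, adjusted p = 0.801).

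Receptors and inhibitors of WNT were found on both sides. Among 43 genes 12 were lower and 10 higher in mesenchyme. The receptors FZD10 (-4.33, SE 0.35, adjusted p = 3.01e-07), FZD8 (-4.31), FZD6 (-2.90) and FZD9 (-1.21) were lower, and FZD2 (1.25) and ROR1 (4.53, SE 0.42, adjusted p = 1.13e-06), a receptor of noncanonical signals, were higher. Of the secreted or membrane inhibitors, the higher ones were DKK2 (4.47), WIF1 (3.22), SFRP1 (2.84), SFRP4 (2.43) and APCDD1 (1.33), while SOSTDC1 (-3.69), KREMEN1 (-2.06), the receptor of DKK proteins, and FRZB (-2.41) were lower. DKK2 had 9.26 and 8.96 in E7fm and 4.77 and 4.52 in E7fe (SE 0.33, adjusted p = 1.41e-07). LEF1, a nuclear partner of beta-catenin, was lower in mesenchyme at 9.49 and 9.48, against 10.63 and 11.29 in E7fe (-1.47, SE 0.35, adjusted p = 0.00833). AXIN2, a common target of the pathway, had 10.13 and 10.26 in E7fm and 10.27 and 10.12 in E7fe, and its groups overlapped (0.00, SE 0.30, adjusted p = 1.0).

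FGF ligands were found in both sheets. FGF20, a ligand of the placode, had 4.82 and 4.61 in E7fm and 10.05 and 10.63 in E7fe (-5.63, SE 0.33, adjusted p = 1.63e-08). FGF13, of the intracellular FGF subfamily, was lower as well, at 4.18 and 4.32 in E7fm and 8.40 and 7.46 in E7fe (-3.68, SE 0.56, adjusted p = 0.000195). FGF7 had 7.62 and 7.58 in E7fm and 3.39 and 3.48 in E7fe (4.16, SE 0.81, adjusted p = 0.00178), and FGF10, of the same subfamily, 6.14 and 4.60 against 3.41 and 3.69 (1.82, SE 0.55, adjusted p = 0.0385). The 2 E7fm arrays lay close for FGF7 and further apart for FGF10. Of the receptors, FGFR1 was higher (10.98 and 10.93 in E7fm, 7.65 and 7.91 in E7fe, 3.18, SE 0.45, adjusted p = 9.43e-05). FGFR2 was lower (11.41 and 11.53 in E7fm, 12.67 and 12.64 in E7fe, -1.18, SE 0.20, adjusted p = 0.000543). FGFR2 thus remained well above the array's floor in both sheets. FGFR3 was lower too (-1.09, adjusted p = 0.0275), on the same side as FGF20. Of the targets and feedback inhibitors, SPRY2 (3.18), IL17RD (2.33), SPRED2 (1.49) and SPRED1 (1.38) were higher and ETV5 (-1.45) lower, while DUSP6 (-0.44, adjusted p = 0.572) did not pass. Of all 34 genes 8 were higher and 6 lower.

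In the BMP, activin and TGF-beta list, 10 of 46 genes were higher and 6 lower in mesenchyme. INHBA, a subunit of activin, had 10.63 and 10.49 in E7fm and 4.66 and 4.69 in E7fe (5.89, SE 0.62, adjusted p = 4.55e-06). Its antagonist FST, follistatin, ran the other way, with 7.16 and 6.94 in E7fm and 10.29 and 10.48 in E7fe (-3.33, SE 0.89, adjusted p = 0.0187). GREM1, which binds BMP, had 9.75 and 9.66 in E7fm and 4.75 and 4.22 in E7fe (5.22, SE 0.31, adjusted p = 1.77e-08). BMP7 (-2.43, SE 0.57, adjusted p = 0.0073) and the receptor BMPR1B (-2.72, SE 0.40, adjusted p = 0.000157) were lower, and the decoy receptor BAMBI (-1.89) too. BMP2, with 9.60 and 9.20 in E7fm and 9.37 and 10.19 in E7fe, overlapped between the sheets (-0.38, SE 0.41, adjusted p = 0.802), and BMP4 did not pass (0.54, SE 0.56, adjusted p = 0.791). TGFB2 (2.86, SE 0.37, adjusted p = 3.87e-05) and TGFB3 (1.29) were higher, as was SMAD3 (1.49), which carries their signal.

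Of the hedgehog list 2 genes were higher and 2 lower of 15, of the EDA list 4 were lower and 0 higher of 9, and of the Notch list 3 were lower and 0 higher of 17. The share of Notch genes passing (17.6%) was near that of all genes (17.9%). Without the 2 doubted arrays the Notch list had 2 higher and 3 lower. SHH, the ligand of later buds, read 4.43 and 4.75 in E7fm and 5.04 and 5.08 in E7fe (-0.47, SE 0.72, adjusted p = 0.895), and its receptor PTCH1 7.91 and 7.68 against 6.92 and 6.11 (1.28, SE 0.94, adjusted p = 0.593). HHIP and the coreceptor BOC (2.46) were higher in mesenchyme, and DISP1 (-1.70) and SCUBE2 (-3.36), which release the ligand, were lower. EDAR, the receptor that marks placodes, had 4.45 and 4.43 in E7fm and 9.34 and 8.91 in E7fe (-4.69, SE 0.57, adjusted p = 2.24e-05), and its adaptor EDARADD 5.53 and 5.62 against 9.96 and 9.93 (-4.37, SE 0.19, adjusted p = 1.01e-09). Their ligand gene EDA was not uneven beyond its spread, at 4.96 and 5.01 in E7fm and 4.83 and 5.38 in E7fe (-0.12, SE 0.35, adjusted p = 0.969). The lower Notch genes were HEY1 (-2.82), LFNG (-1.72) and NRARP (-1.59). In the retinoic acid list ALDH1A3 (10.34 and 10.26 in E7fm, 3.12 and 3.55 in E7fe) and RDH10 (2.09), which make the ligand, were higher, and CYP26A1 (-2.14), which degrades it, was lower. That list had 2 higher and 2 lower of 16, and 4 and 3 without the 2 doubted arrays.

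Other growth factors and guidance cues paired an epithelial ligand with a mesenchymal receptor in several cases. Of 68 genes 17 were higher and 15 lower in mesenchyme. PDGFA had 9.43 and 9.36 in E7fm and 13.11 and 13.14 in E7fe (-3.73, SE 0.29, adjusted p = 2.23e-07), and its receptor PDGFRA 10.84 and 11.00 against 4.78 and 4.67 (6.20, SE 0.43, adjusted p = 7.38e-08). PDGFB (-2.38, SE 0.49, adjusted p = 0.00272) and PDGFRB (4.44, SE 0.45, adjusted p = 2.9e-06), the receptor of pericytes and fibroblasts, were placed the same way. Semaphorins SEMA3A, SEMA3C, SEMA3D and SEMA3E, secreted guidance cues, were lower in mesenchyme, with differences of -5.48 to -3.29, while NRP1, a receptor of this class and of VEGF, had 11.87 and 11.88 in E7fm and 8.21 and 7.79 in E7fe (3.88, SE 0.27, adjusted p = 8.18e-08). CXCL12 was lower (8.40 and 7.76 in E7fm, 10.20 and 10.16 in E7fe, -2.10, SE 0.53, adjusted p = 0.0124, 1 of its 4 probe sets passing) and its receptor CXCR4 higher (7.51 and 6.75 in E7fm, 3.08 and 3.77 in E7fe, 3.70, SE 0.32, adjusted p = 5.56e-07). EGFR (-3.67), MET (-2.60) and ERBB4 (-2.20) were epithelial receptors, and the MET ligand gene HGF read 4.81 and 4.82 in E7fm and 4.82 and 4.81 in E7fe (0.00, SE 0.23, adjusted p = 0.999).

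Read as 38 ligand and receptor pairs with both genes on the array, 7 had a ligand lower and a receptor higher in mesenchyme, which were FGF20 with FGFR1, PDGFA with PDGFRA, PDGFB with PDGFRB, CXCL12 with CXCR4, SEMA3A and SEMA3D with NRP1, and SLIT2 with ROBO1. These share NRP1 in 2 cases. In 2 pairs, FGF7 and FGF10 with FGFR2, the ligand was higher and the receptor lower. Ligand and receptor were both lower in 3 pairs, KITLG with KIT and WNT3A and WNT6 with FZD10, and both higher in 2, SLIT3 with ROBO2 and ANGPT1 with TEK. In 14 pairs neither gene passed, among them SHH with PTCH1, BMP2 and BMP4 with BMPR1A, and VEGFA with KDR. Pairs were set by known binding, with earlier results of these data known, and many of these ligands have further receptors. Over all genes 9.09% were higher and 8.78% lower, and the pair counts were not tested against these shares.

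**Figure D3:**
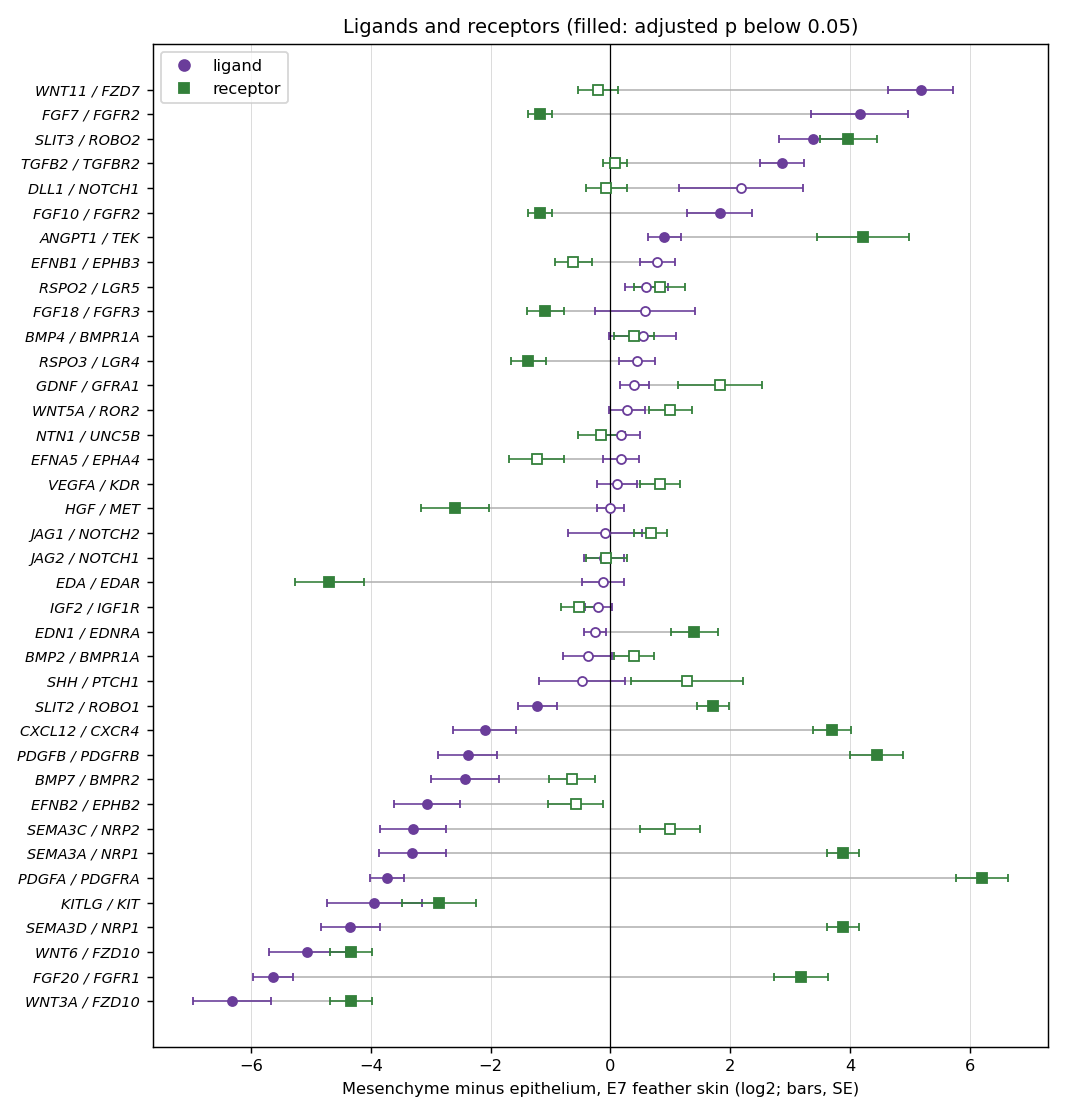
Difference of the ligand (circle) and of the receptor (square) of each pair, E7 feather mesenchyme minus epithelium in log2 units with SE bars, filled where the adjusted p is below 0.05. Long grey lines that cross 0 mark pairs split between the sheets, such as PDGFA (-3.73) and PDGFRA (6.20).

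Among ephrin genes EPHA1 (-4.97, SE 0.20, adjusted p = 6.02e-10) and the ligand EFNB2 (-3.06) were lower in mesenchyme, and the receptors EPHA3 (4.43) and EPHB1 (2.36) higher. HOX genes, which record position along the body, had 4 higher and 3 lower of 29, and without the 2 doubted arrays 10 higher and 4 lower. The members HOXA3, HOXA6 and HOXA9, all above 9 on each of the 4 arrays, did not pass in the fit to all arrays. HOXD10 (3.15) and HOXA11 (2.95) were higher and HOXD4 (-2.90) and HOXA2 (-2.42) lower. Calcium channel and signalling genes had 9 higher and 5 lower of 44, and 9 higher and 9 lower without the 2 doubted arrays. CACNA1G, a T-type channel subunit, had 7.82 and 7.94 in E7fm and 5.01 and 5.29 in E7fe (2.73, SE 0.46, adjusted p = 0.000547, 1 of its 5 probe sets passing), and the phospholipase PLCE1 8.10 and 8.84 against 3.93 and 4.0 (4.51, SE 0.51, adjusted p = 1.04e-05). CACNA1D, an L-type subunit, read 3.21 and 3.18 in E7fm and 6.24 and 4.25 in E7fe. It did not pass (-2.05, SE 0.66, adjusted p = 0.0563), though it did without the 2 doubted arrays (adjusted p = 0.0183). The calcium pump ATP2B1 (-2.61, SE 0.35, adjusted p = 6.13e-05) was lower, and CACNA1H and ORAI1 did not pass (adjusted p = 0.959 and 0.414). Of 9 connexin and pannexin genes GJB6 alone passed, whereas GJA1, the most widespread connexin, read 13.50 and 13.49 in E7fm and 13.36 and 13.18 in E7fe.

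Few cell cycle genes passed, though most had a small difference toward mesenchyme (77.8% positive, against 47.3% of all genes). Of 36 genes 32 did not pass, with a median of 0.29, against -0.02 over all genes. MKI67, a mark of cycling cells, had 10.93 and 11.03 in E7fm and 10.90 and 10.29 in E7fe (0.39, SE 0.25, adjusted p = 0.505). CDKN2A, a cell cycle inhibitor, stood out at 6.77 and 7.15 in E7fm and 10.37 and 10.51 in E7fe (-3.48, SE 0.63, adjusted p = 0.000998).

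Neither sheet was a single cell type. Mesenchyme also held the markers of vessels and blood. Of 24 endothelial markers 15 were higher and 0 lower, and their mean level was 7.56 and 7.48 on the E7fm arrays and 4.81 and 4.76 on the E7fe arrays, with 15 of them below 5 in E7fe. CDH5 had 10.86 and 10.62 in E7fm and 3.22 and 3.35 in E7fe (SE 0.79, adjusted p = 5.3e-06), SOX17 10.03 and 9.65 against 3.71 and 3.29 (6.34, SE 0.91, adjusted p = 0.000117), whereas KDR, the VEGF receptor, did not pass with this probe set (0.83, SE 0.33, adjusted p = 0.141), although 4 of its 5 probe sets did. Of 13 erythroid markers 8 were higher and 0 lower. HBA1, an alpha globin, had 13.95 and 13.73 in E7fm and 9.20 and 10.66 in E7fe (3.91, SE 0.81, adjusted p = 0.00296), so globin RNA was well above the floor in epithelium as well. Of 16 leukocyte markers 10 were higher and 0 lower, LCP1 with 8.35 and 8.28 against 4.34 and 4.42 (3.94, SE 0.36, adjusted p = 1.13e-06), while PTPRC, the pan-leukocyte antigen, stayed below 5 on all 4 arrays (0.61, SE 0.31, adjusted p = 0.286). The part of these cells in the differences of matrix, guidance and receptor genes was not tested.

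Epithelium in turn held the markers of pigment cell precursors. Melanoblasts are neural crest cells that reach the epidermis through the dermis. Of 21 markers 13 were lower and 1 higher in mesenchyme (median -2.13), with mean levels of 6.20 and 6.36 on the E7fm arrays and 8.29 and 8.27 on the E7fe arrays. MLANA had 9.16 and 8.87 in E7fm and 12.57 and 13.16 in E7fe (-3.85, SE 0.97, adjusted p = 0.0127), TYR, tyrosinase, 4.85 and 5.21 against 9.06 and 9.24 (-4.12, SE 0.90, adjusted p = 0.00448), and MITF, their master factor, 6.39 and 7.12 against 9.71 and 9.19 (-2.69, SE 0.41, adjusted p = 0.000212). KIT, EDNRB2, PMEL, DCT and TYRP1 were lower, with differences of -3.66 to -2.86, and FOXD3, a factor of early neural crest, was the higher member (1.24, SE 0.27, adjusted p = 0.00465). KITLG, which guides melanoblasts, lay on the same side as KIT (5.19 and 5.68 in E7fm, 9.61 and 9.13 in E7fe, -3.94, SE 0.79, adjusted p = 0.00225). Nerve genes went both ways, NEFM (-4.75, SE 0.88, adjusted p = 0.00124) and NEFL (-3.04) being lower and DCX (3.05, SE 0.94, adjusted p = 0.0433), FABP7 (2.10) and CDH19 (1.46) higher.

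Skeletal muscle markers were mostly low, with 16 of 26 below 5 in E7fm and 18 in E7fe. Of the 26 markers 1 was higher (TNNC1, 1.35) and 1 lower (CASQ2, -2.16, 1 of its 3 probe sets passing), and 3 and 2 without the 2 doubted arrays. MYOD1, MYF6 and DES stayed below 5 on all 4 arrays and gave no sign of muscle carry-over. The actin gene ACTA1 read 7.32 and 7.43 in E7fm and 7.79 and 8.19 in E7fe (-0.62, adjusted p = 0.466). ACTC1, another actin gene, read 6.01 and 5.78 against 4.41 and 4.29 (1.55, adjusted p = 0.45). Both passed only without the 2 doubted arrays (adjusted p = 0.0475 and 0.00031). The source of their RNA was not tested. Of 18 cartilage, tendon and bone markers, 9 of them below 5 in E7fm and 10 in E7fe, 4 were higher, TNMD, LECT1 (4.86), COL9A3 (1.86, 1 of its 4 probe sets passing) and RUNX2 (1.44), whereas the defining markers ACAN, MATN1 and SCX did not pass. Smooth muscle and pericyte markers were not low as a list, with mean levels of 7.79 and 7.74 on the E7fm arrays and 6.97 and 7.13 on the E7fe arrays. Of 13 only 3 lay below 5 in E7fm and 5 in E7fe, ACTA2 and MYH11 among them, and 2 were higher in mesenchyme, MYLK (2.91) and PDGFRB.

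**Figure D4:**
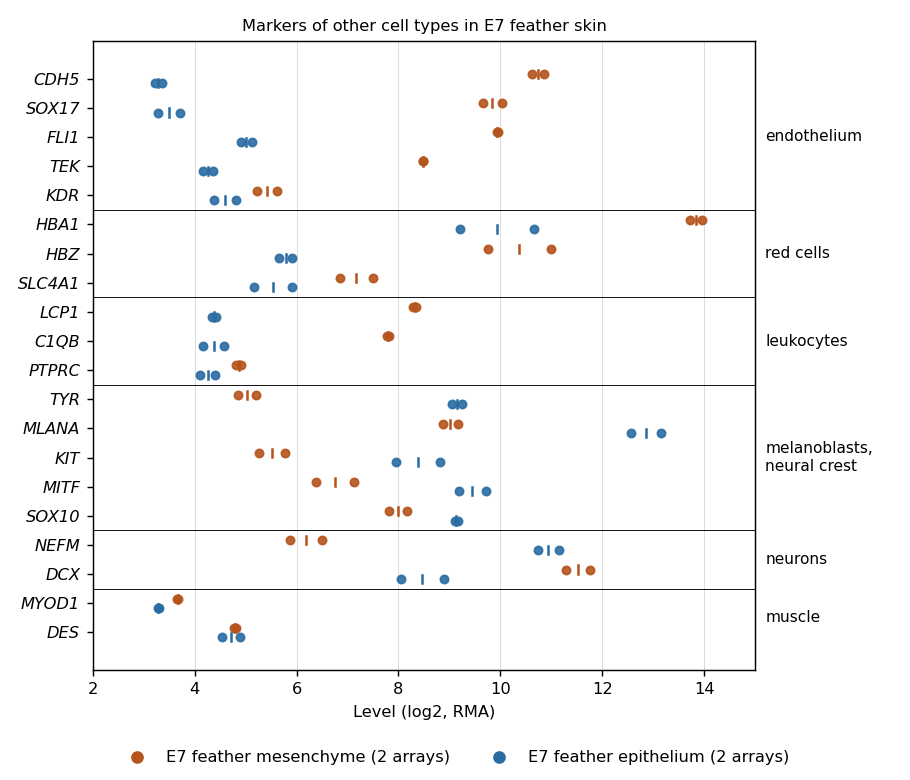
Level (log2, RMA) on the 2 E7 feather mesenchyme and 2 E7 feather epithelium arrays of markers of other cell types, grouped by cell type, with the mean of each group as a short line. Endothelial, red cell and most leukocyte markers lie higher in mesenchyme, pigment cell markers lower, and the muscle markers MYOD1 and DES below 5 in both.

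The difference between the sheets was then set against that of older feather skin and of scale skin in the same fit, which asks where the compartments of early feather skin part in a manner of their own. Each test shares the 4 arrays of day 7. Against E9 feather skin 85 of 13009 genes passed (0.653%), against E9 scale skin 106 (0.815%) and against E11 scale skin 366 (2.81%). Without the 2 doubted arrays, which belong to E9 feather skin, these counts were 536, 356 and 754, so the smaller counts depend on them. Of the 905 genes in the lists, pairs and largest differences 21, 21 and 61 passed.

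Among these genes POSTN, periostin, had the smallest adjusted p of change against each skin. It was high in mesenchyme of every skin (12.42 and 12.30 in E7fm, 12.20 to 12.63 in E9fm, 11.95 and 12.84 in E9sm, 12.64 to 12.80 in E11sm). In epithelium it read 5.76 and 5.42 in E7fe, against 11.08 to 11.19 in E9fe, 10.22 and 10.76 in E9se and 11.97 to 12.28 in E11se. The difference between sheets was thus 6.77 at E7, 1.30 in E9 feather, 1.90 in E9 scale and 0.63 in E11 scale skin, and the change of the difference passed against each (adjusted p = 6.14e-07, 6.74e-06 and 1.08e-07). WNT11 behaved alike against E9 feather skin (5.18 at E7 and 1.68 at E9, adjusted p = 0.0349), where E9fe arrays read 7.66, 9.95 and 9.94, against 6.18 and 6.11 in E7fe. NRP1 (3.88 at E7, 1.69, 1.84 and 2.33 in E9 feather, E9 scale and E11 scale skin) passed against all 3 (adjusted p = 0.00889, 0.0258 and 0.0341).

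For several genes the difference had the opposite sign in the other skins. CXCL12, with 1 of its 4 probe sets passing at E7, was lower in mesenchyme at E7 and higher in mesenchyme of the other 3 skins (-2.10, against 1.86 in E9 feather, 2.15 in E9 scale and 2.04 in E11 scale skin, adjusted p of the change 0.0148, 0.0151 and 0.00414). FRZB (-2.41, against 1.22, 1.01 and 4.12, adjusted p = 0.0127, 0.0313 and 2.68e-05), SLIT2 (-1.22, against 1.09, 1.81 and 2.68, adjusted p = 0.0188, 0.00519 and 8.37e-05), NBL1, a BMP antagonist (-1.92, against 0.49, 1.13 and 1.62), and CDH4 (-1.94, against 1.66, 0.89 and 1.48, adjusted p = 0.000458, 0.0085 and 0.000374) were alike, although within E9 scale skin FRZB and CDH4, and within E9 feather skin NBL1, did not pass. For CDH4 1 of its 2 probe sets passed at E7. For FRZB the E7fe arrays read 9.95 and 10.27, above E9fe at 7.48 to 7.81, while E7fm at 7.87 and 7.52 lay below E9fm at 8.56 to 9.31. FGF20 was lower in mesenchyme throughout and more so at E7 (-5.63, against -2.38 in E9 feather and -1.76 in E9 scale skin, adjusted p = 0.00149 and 0.000788), and against E11 scale skin (-4.27) the change did not pass (adjusted p = 0.16). EGFR (-3.67, against -1.82, -1.60 and -1.65) had like levels in epithelium, at 9.96 and 9.72 in E7fe and 9.73 to 10.00 in E9fe, and a lower mesenchymal level at E7, at 6.07 and 6.27 in E7fm and 7.82 to 8.25 in E9fm.

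Against E9 scale skin, NKX6-1, a homeobox factor of neural tube and pancreas, had 9.57 and 10.49 in E7fm and 7.40 and 6.05 in E7fe, whereas E9sm read 6.11 and 6.53 and E9se 6.80 and 6.08 (3.31 against -0.12, adjusted p = 0.0487). EPHA3 was low in E7fe at 3.87 and 3.57 and at 8.04 and 8.37 in E9se (4.43 against -0.13, adjusted p = 0.024). In E9 feather skin its difference was 1.10 and in E11 scale skin 1.48, and the change did not pass against either (adjusted p = 0.0973 and 0.0729). Against E11 scale skin SMOC1, a basement membrane protein, turned round (3.58 against -2.19, adjusted p = 0.000613), with 8.65 and 8.80 in E7fm and 7.64 to 8.81 in E11se. LMX1B was epithelial at E7 and not in E11 scale skin (-4.20 against 0.73, adjusted p = 0.016), and its E9fe arrays read 6.11, 8.27 and 9.10. SPON2 (0.59 against 6.61), LUM (2.95 against 7.47) and ZEB2 (3.77 against 7.39) had smaller differences at E7. The embryonic globin HBZ differed more at E7 (4.58, against 1.65, 0.54 and 0.14), with 10.99 and 9.75 in E7fm.

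**Figure D5:**
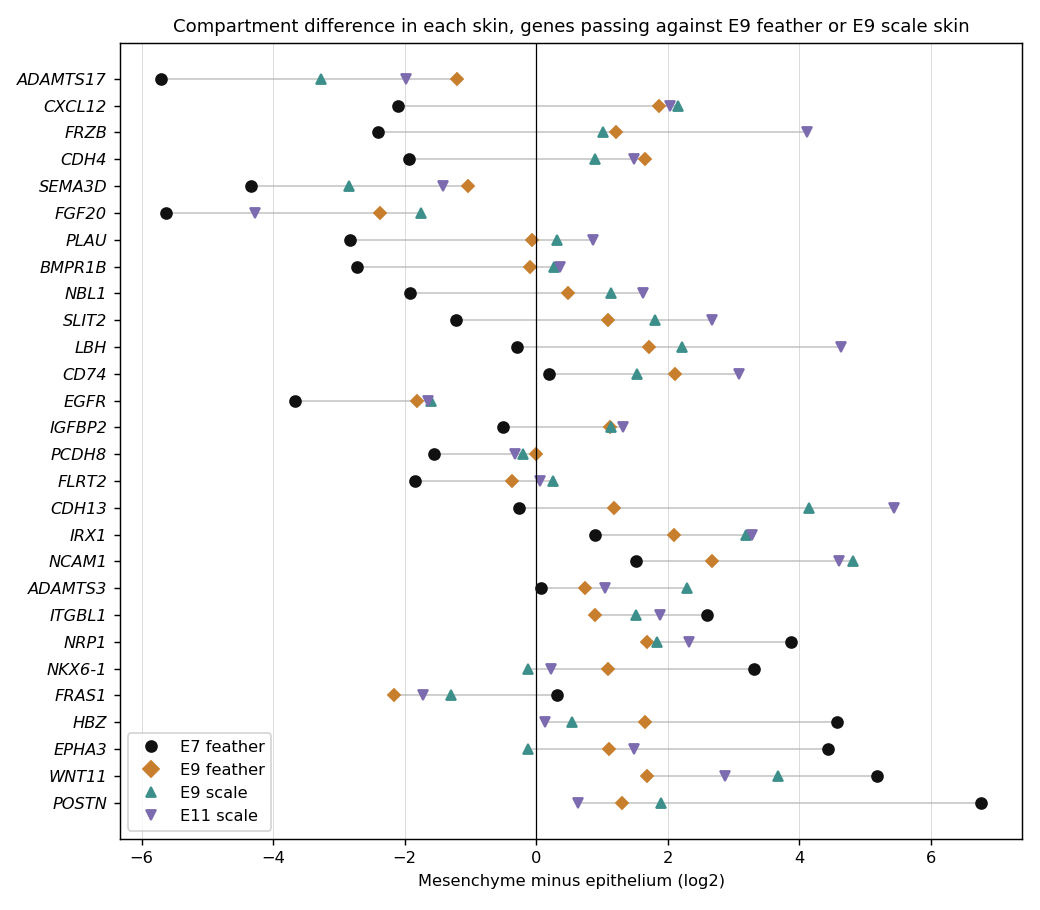
Difference between mesenchyme and epithelium (log2) in E7 feather, E9 feather, E9 scale and E11 scale skin for the 28 listed genes whose difference at E7 passed against that of E9 feather or E9 scale skin. POSTN lies at 6.77 in E7 feather and at 0.63 to 1.90 in the other skins, and CXCL12, FRZB and CDH4 lie below 0 in E7 feather and above 0 elsewhere.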

How the data were processed

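RNA from the 20 pooled skin samples was measured on Affymetrix chicken arrays, 1 array a sample. The deposited values are the authors' log2 expression levels after RMA in the affy package, per the labels, with versions not given in the sources used here. RMA makes the arrays' value distributions alike, so a shift shared by most transcripts would not be seen. Scanner files were not used here, so no other background correction was tried.

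The table holds 38535 probe sets, and the fit used the 38382 that remained once 153 control probes had been removed. Probe sets were named through the platform annotation: 27168 carry 1 symbol, 177 several and 11037 none, and 13009 genes resulted. Where a gene had several probe sets, the one of highest mean over the 20 arrays stood for it. Models with 8 group means were fitted with limma 3.58.1 in R 4.3.3 (lmFit, eBayes), and tables and plots were made with Python 3.11.15. A call needed a Benjamini-Hochberg adjusted p below 0.05. A change of the difference was tested as a contrast of 4 group means. The script was tested on simulated data.

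Genes were named as the 15 with the largest difference each way among passing genes whose groups do not overlap, and as members of gene lists and ligand and receptor pairs. The members and lists were chosen with earlier results of these data known. Alternatives were the arrays in the fit, a replicate block, variance moderation, a filter on low levels, scaling, the probe set of a gene, the call rule and leaving out each array. The deviations of same-numbered arrays from their group means correlated at -0.3745 in E7 skin and at 0.1973 to 0.7075 in the other skins. The main fit took the numbers as pairs in no skin, so its tests leave out any pairing in the other skins. Values with the block are given further on. No sequences were used.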

Additional observations from a re-analysis of the deposited data

Results flagged for a closer look

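Genes are given here when the difference between mesenchyme and epithelium at E7 itself differed from that of another skin by the test of the change, among list members and genes named above. Values are log2 units, the E7 feather difference minus that of the other skin, and the tests share the 4 arrays of day 7. With groups of 2 or 3 arrays, no formal test for a single outlying array was run.

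Against E9 feather skin the change was negative for ADAMTS17 (-4.50), CXCL12 (-3.96), FRZB (-3.63), CDH4 (-3.59), SEMA3D (-3.30), FGF20 (-3.25), PLAU (-2.76), BMPR1B (-2.62), NBL1 (-2.41), SLIT2 (-2.31), LBH (-2.01), CD74 (-1.92), EGFR (-1.85), IGFBP2 (-1.61), PCDH8 (-1.55). It was positive for ITGBL1 (1.70), NRP1 (2.19), FRAS1 (2.49), HBZ (2.92), WNT11 (3.50), POSTN (5.47).

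Against E9 scale skin it was negative for CDH13 (-4.41), CXCL12 (-4.25), FGF20 (-3.87), FRZB (-3.42), NCAM1 (-3.29), PLAU (-3.13), NBL1 (-3.06), SLIT2 (-3.03), BMPR1B (-2.99), CDH4 (-2.82), LBH (-2.51), IRX1 (-2.30), ADAMTS3 (-2.21), FLRT2 (-2.11), EGFR (-2.07), IGFBP2 (-1.64). It was positive for NRP1 (2.04), NKX6-1 (3.43), HBZ (4.04), EPHA3 (4.57), POSTN (4.86).

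Against E11 scale skin it was negative for FRZB (-6.53), SPON2 (-6.02), CDH13 (-5.70), LMX1B (-4.93), LBH (-4.92), LUM (-4.53), GDF10 (-4.38), SMOC2 (-4.22), CXCL12 (-4.14), SLIT2 (-3.90), OCA2 (-3.84), GFRA1 (-3.75), ADAMTS17 (-3.73), PLAU (-3.69), FGF13 (-3.64), ZEB2 (-3.62), NBL1 (-3.54), FGF2 (-3.44), CDH4 (-3.42), SOX10 (-3.41), WNT2B (-3.10), NCAM1 (-3.09), BMPR1B (-3.08), HOXA11 (-3.08), THBS2 (-3.05), UNC5C (-3.05), LAMA4 (-3.04), DKK3 (-3.0), PLCB1 (-2.96), PTN (-2.94), SEMA3D (-2.92), CD74 (-2.89), PDGFB (-2.89), KCNJ8 (-2.73), ADAMTS18 (-2.71), IRX1 (-2.39), ALX1 (-2.36), TNC (-2.21), EGFR (-2.02), FLRT2 (-1.90), FOXD3 (-1.86), IGFBP2 (-1.82), CAMK4 (-1.57), MATN3 (-1.43), COL14A1 (-1.35), PCDH8 (-1.23). It was positive for ITPR1 (1.43), LAMB3 (1.51), NRP1 (1.54), ROBO1 (1.66), KRT23 (1.95), FRAS1 (2.04), TGFB2 (2.10), LRP4 (2.38), NKX6-1 (3.09), KRT6A (3.92), FGFBP1 (4.36), HBZ (4.44), HOXC9 (4.74), SMOC1 (5.78), POSTN (6.13). Age and skin region differ together in both comparisons with scale skin and cannot be told apart.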

How the results depend on the processing

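With each E7 array left out in turn, 1583 to 1703 probe sets were higher and 1488 to 1702 lower in mesenchyme, and the change passed for 49 to 79 probe sets against E9 feather, 59 to 84 against E9 scale and 239 to 331 against E11 scale skin, where all arrays gave 2414, 2336, 158, 189 and 645. The lone array is then assumed to vary like the other groups. The 5-fold rule on group means, with no test, gave 808 higher and 633 lower. Without the arrays labelled E9fe replicate 1 and E9fm replicate 1, the change passed for 1006, 647 and 1368 probe sets.

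With the replicate block, skin and replicate number, 2950 probe sets were higher and 2866 lower, and the change passed for 248, 277 and 1035 against E9 feather, E9 scale and E11 scale skin. A crossed pairing of the E7 numbers, chosen after seeing the data, gave 3208 higher and 3175 lower.

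Recentring on ribosomal protein genes gave 2559 higher and 2045 lower. Of the 270 genes refitted 222 passed as reported, and none of these changed sign. The difference of 17 genes, none passing and none larger than 0.38 in size as reported, changed sign in at least 1 setting. Leaving out each E7 array gave ranges that reach or cross 0 for ACAN (-0.52 to 0.12), AXIN2 (-0.07 to 0.08), BMP2 (-0.79 to 0.03), CACNA1H (-0.45 to 0.18), COL4A3 (-0.11 to 0.15), DES (-0.08 to 0.27), DLX5 (-0.32 to 0.46), EDA (-0.39 to 0.16), FN1 (-0.32 to 0.29), FOXF1 (-0.17 to 0.14), HGF (0.00 to 0.01), HOXA6 (-0.60 to 0.03), KRT75 (-0.14 to 0.31), MATN1 (-0.11 to 0.26), MYF6 (-0.29 to 0.03), TBX2 (-0.33 to 0.15), TBX5 (-0.23 to 0.35). Recentring gave 0.05 for FN1 and 0.05 for FOXF1, and the mean over all probe sets -0.12 for TBX5. Of the 222, 45 lost the call in at least 1 setting, and 6 of them, ANGPT1, CLDN4, DCX, NID1, NPNT and SCUBE2, in a setting other than leaving out an array. The causes were not tested. Levels near the floor and 2 arrays a group limit what can be told.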

Other observations

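Genes in no list, chosen after their values were seen, included several of neurotransmitters and neuropeptides with higher levels in mesenchyme. GAD1, which makes GABA, had 8.79 and 9.47 in E7fm and 3.23 and 3.01 in E7fe (6.02, SE 0.87, adjusted p = 0.00012 by limma). SLC18A2, the vesicular monoamine transporter, had 9.86 and 10.22 in E7fm and 3.74 and 3.93 in E7fe (6.20, SE 0.36, adjusted p = 1.55e-08). The peptide genes SST1 (5.71, 1 of its 3 probe sets passing), TAC1 (5.36), CCK (4.44) and NPY (4.13) and the receptor NPY2R (4.10) were higher as well. The groups did not overlap for any of these 7 genes, as was so for 7319 of all 13009 genes. Other genes of the same kind did not pass, among them GAD2 (0.87), SLC32A1 (-0.02), PENK (-0.62) and CHAT (0.13), and TH, tyrosine hydroxylase, was lower (-1.16).

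The WNT pathway genes DKK4, an inhibitor (11.62 and 11.18 in E7fm, 4.56 and 5.49 in E7fe, 6.38, SE 0.58, adjusted p = 9.74e-07), and NDP, a ligand of FZD4 (6.24, SE 0.56, adjusted p = 9.27e-07), were higher in mesenchyme. PTGS2, which makes prostaglandins, was lower (5.48 and 5.67 in E7fm, 10.23 and 10.20 in E7fe, -4.64, SE 0.31, adjusted p = 5.27e-08, 1 of its 2 probe sets passing), as was the prostaglandin receptor PTGER4 (-3.66).

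CPA6, a carboxypeptidase, had a difference of 2.93 at E7 and of -1.98, -2.18 and -1.68 in E9 feather, E9 scale and E11 scale skin. FRK, a tyrosine kinase, differed by 3.24 at E7 and by 0.18, 0.09 and 0.23 in the other skins.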
